A study of Mus musculus with 3 samples.

Results

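The genes of the BMP and TGF-beta pathway were described in cap mesenchyme sorted from the embryonic mouse kidney. The 45 listed genes cover ligands, extracellular regulators, receptors, Smads with the Smurf ligases, and Id targets. They were chosen by name, with earlier results of these data known. A gene was measured where at least 1 probe set, a group of short probes against a transcript, carried its symbol alone. That held for 43 of the 45 genes, with 94 of the 45037 probe sets other than controls. Bmp3 and Gdf6 were not analysed here.

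The data came from 3 arrays, each hybridised with RNA of 1 pool of about 5 to 10 kidneys at E15.5 (Theiler stage 23). The RNA of every pool had gone through 2 rounds of amplification. The mice were of the CD-1 strain with the transgene Tg(Six2-EGFP/cre)1Amc, in which Six2 sequences drive a fusion of EGFP and cre, and the sorted cells were those labelled cap mesenchyme. The pools form 1 group, so no other cell type, genotype or stage is available for comparison, and nothing in the labels says whether the pools came from separate litters. P-values therefore rest only on spread between these pools, that of the probe set itself together with that of the other probe sets. The labels give the sex as unknown. The sort gate is not given in the sources used here.

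BMPs and TGF-betas are secreted dimers that bind pairs of type I and type II receptor kinases. BMP-type receptors phosphorylate Smad1, Smad5 and Smad9, and TGF-beta and activin receptors phosphorylate Smad2 and Smad3. Both kinds of Smad enter the nucleus with Smad4, where BMP signals switch on the Id genes and the feedback inhibitors Smad6 and Smad7. In the kidney, Bmp7 is known to keep nephron progenitors alive and to prime them for differentiation, and Bmp4 and the antagonist Grem1 are known for their part in the outgrowth of the ureteric bud.

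Each signal was set against the background level of its own array, the 95th percentile of 150 probe sets for sensory receptor, hair and defensin genes. In pools 1, 2 and 3 this level corresponded to signals of 197, 186 and 201. The mean distance from it over the 3 pools, on the scale of log2(signal + 16), was tested one-sided with limma over all 45037 probe sets, and an adjusted p under 0.05 was called above background. Every SE given with such a distance is the moderated SE of limma. It draws on the spread of all probe sets and is not the SE of the 3 pool values alone. Probe sets differ in affinity, so a signal is compared with the background and with the same probe set in other pools, never with that of another gene. A gene that did not pass may still be transcribed. In sorted bulk RNA, fewer cells that use a gene and less RNA per cell cannot be told apart.

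The sorted cells carried the markers of their label. All 10 cap mesenchyme markers, Six2 among them, were above background, and their summed signal ranged from 120315 to 137729 over the pools. Such sums are given to compare pools within a list. They are not compared between lists, which differ in length and in the affinity of their probe sets. None of 6 endothelial, 6 macrophage and 4 erythroid markers was above background. The summed signals of these lists ranged from 618 to 789, from 596 to 895 and from 150.3 to 247. Of 7 ureteric bud markers 2 were above it, Wnt11 and Krt8, with sums from 854 to 1556, and Ret, Calb1 and Gata3 were not. Of 3 podocyte markers 1 was, Podxl, with sums from 779 to 1093. Stromal markers were above background in 6 of 7 cases, with sums from 28048 to 35195, and Foxd1 among them read 7370, 7389 and 7938 in pools 1, 2 and 3. Early nephron markers were above background in 5 of 6 cases, with sums from 25102 to 28558. The part of stromal or early nephron RNA in the signals below was not tested.

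Transcripts of 31 of the 43 measured pathway genes were above background, 72.1% against 54.4% of all 18193 named genes. Of their probe sets 55 of 94 passed, 58.5% against 41.5% of all 45037 probe sets. The latter include probe sets without a single gene symbol, which the pathway list by its rule does not. The share differed by role. Above background were 10 of 11 receptors, 9 of 10 Smads and Smurfs, 4 of 4 Id genes, 5 of 12 ligands, 2 of 5 antagonists and the protease gene Bmp1. The ligand share of 41.7% and the antagonist share of 40.0% lay below that of all named genes. A gene passed on any of its probe sets, and their number differed by role, with 22 for the 12 ligands and 32 for the 11 receptors. By probe set, 40.9% passed for ligands, close to the 41.5% of all, and 33.3% for antagonists. The shares by probe set were 62.5% for receptors, 73.9% for Smads and Smurfs and 75% for Id genes. These shares are a description of small lists, and the differences between roles were not tested.

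Bmp7 lay far above background. One probe set read 13076, 11399 and 11946 in pools 1, 2 and 3, a range of 1.15-fold. It lay 5.85 ± 0.12 (SE, n = 3) above background on the log2 scale (adjusted p = 1.6e-08, limma). The other probe sets of Bmp7 also passed, with mean signals of 1034 and 708. All 3 probe sets of Bmp7 were highest in pool 1, but their highest and lowest pools differed by less than 2-fold.

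Bmp2 and Bmp4, a closely related pair of BMP ligands, were above background on their only probe sets. Bmp2 read 1675, 2011 and 2570 in pools 1, 2 and 3, which is 3.30 ± 0.15 (SE, n = 3) over background on the log2 scale (adjusted p = 3.64e-07, limma). Bmp4 read 1172, 874 and 1531, or 2.49 ± 0.17 (SE, n = 3) over background (adjusted p = 4.55e-06, limma). Both were highest in pool 3, and every pool was over its own level.

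Of the TGF-beta ligands, Tgfb2 and Tgfb3 were above background and Tgfb1 was not. Tgfb3 read 1214, 990.3 and 1075 in pools 1, 2 and 3, or 2.39 ± 0.14 (SE, n = 3) over background on the log2 scale (adjusted p = 1.82e-06, limma). Tgfb2 passed on 3 of 4 probe sets, and these did not order the pools alike. The first read 661, 936 and 1225 in pools 1, 2 and 3, with an adjusted p of 2.58e-05 (limma). The second read 926, 554 and 492, and the third 946, 626 and 349, so these were lowest in the pool where the first was highest. Tgfb1 read 98.9, 132 and 142 on one probe set and 5.20, 37.8 and 35.4 on the other, under the level in every pool.

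Ligands of the remaining branches were not above background. Bmp5, Bmp6, Gdf5, Gdf11 and the activin subunit genes Inhba and Inhbb had mean signals on their brightest probe sets from 23.4 for Gdf5 to 211 for Bmp5. Bmp5 read 296 and 224 in pools 1 and 2, over the level, and 115 in pool 3, under it (adjusted p = 0.961, limma). Gdf11, a ligand known to be needed for ureteric budding, read 191, 166 and 227 and was over the level in pool 3 alone. Inhba read 30.7, 10.9 and 66.2 and Inhbb 133, 107 and 35.3, with no pool over the level.

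**Figure D1:**
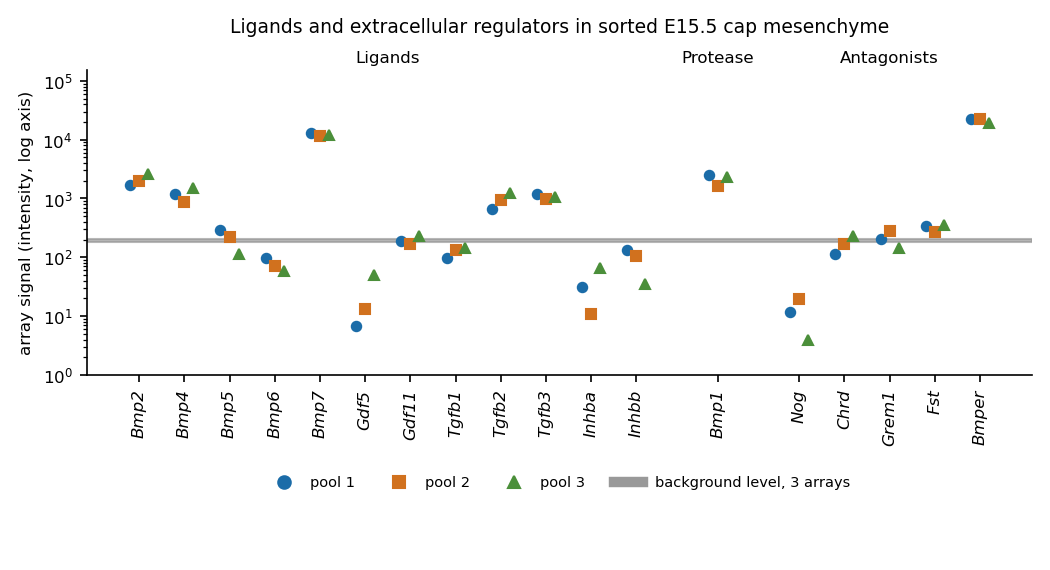
Array signal (intensity, log axis) of the brightest probe set of each ligand, protease and antagonist gene, 1 point per pool, with the background levels of the 3 arrays as a grey band. Bmp2, Bmp4, Bmp7, Tgfb2, Tgfb3, Bmp1 and Bmper lie clear of the band in all 3 pools, Fst lies just over it, and Nog lies under it in all 3 pools, at signals from 3.99 to 19.5.

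Bmp1 is named with the BMPs but encodes a metalloprotease that cleaves procollagens and the BMP antagonist chordin. One of its 3 probe sets was above background, at 2463, 1660 and 2284 in pools 1, 2 and 3, with pool 2 the lowest (adjusted p = 2.5e-07, limma). The others had mean signals of 77.3 and 47.3.

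Bmper, which encodes a chordin-like protein that binds BMPs outside the cell, was above background on its only probe set. It read 22681, 22825 and 19011 in pools 1, 2 and 3, or 6.67 ± 0.14 (SE, n = 3) over background on the log2 scale (adjusted p = 1.6e-08, limma). The pools differed by 1.20-fold.

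Of the classical antagonists, which bind the ligands and keep them from the receptors, Nog, Chrd and Grem1 were not above background and Fst was. Nog read 11.8, 19.5 and 3.99 and Chrd 114, 171 and 231 in pools 1, 2 and 3. Grem1 read 203 and 280 in pools 1 and 2, over the level, and 147 in pool 3 (adjusted p = 0.877, limma). Fst, the activin antagonist follistatin, read 344, 270.3 and 348 on one probe set, 1.59-fold over background (adjusted p = 0.0296, limma). Its other probe set read 198, 16.7 and 82.9, and the first lost its call without any one of the pools, with adjusted p of 0.0952, 0.0824 and 0.0973 without pools 1, 2 and 3. The count of antagonists above background was then 1 of 5, and that gene was Bmper, not a classical antagonist.

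Receptors were represented on both the BMP and the TGF-beta side. The type I BMP receptor gene Bmpr1a read 19960, 13423 and 15421 in pools 1, 2 and 3, or 6.25 ± 0.15 (SE, n = 3) over background on the log2 scale (adjusted p = 1.6e-08, limma). It passed on 5 of 6 probe sets. The type II receptor gene Bmpr2 read 21240.1, 20472 and 15192, or 6.48 ± 0.16 over background (adjusted p = 1.62e-08, limma). Bmpr2 passed on 2 of 3 probe sets. On their brightest probe sets both genes stood over the level in every pool, and Bmpr2 was lowest in pool 3.

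Bmpr1b, the second type I BMP receptor, read 630.3, 609 and 550 in pools 1, 2 and 3 on the only one of its 3 probe sets that passed (adjusted p = 9.48e-05, limma). With the background set at its 99th percentile it no longer passed (adjusted p = 0.128). Acvr1, a type I receptor that also serves BMPs, read 6570.1, 6152 and 6945 on its brightest probe set (adjusted p = 1.6e-08, limma). Acvrl1, a BMP9 and BMP10 receptor known from endothelium, read 11.8, 62.1 and 76.7 on one probe set and 74.1, 20.8 and 33.6 on the other. It was the only receptor of the list not above background.

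The activin receptor genes Acvr2b, Acvr2a and Acvr1b were each above background on at least 1 probe set, in all 3 pools. Acvr1c, a receptor gene outside the 45 listed, did not pass on any of its 3 probe sets. Its brightest read 97.4, 111 and 87.9 in pools 1, 2 and 3, under the level in each. The type II receptor gene Acvr2b read 4880, 6502 and 7891 in pools 1, 2 and 3 on its brightest probe set, highest in pool 3. A further probe set of Acvr2b read 2735, 2154 and 2045, highest in pool 1. The remaining probe set of Acvr2b did not pass, with a mean of 10.2. Acvr2a, the other activin type II receptor gene, passed on 2 of 2 probe sets, with means of 1403 ± 216 and 1269 ± 215 (SD, n = 3). The type I receptor gene Acvr1b read 2444, 2222 and 2672, a 1.20-fold range, on 1 of 2 probe sets. The other did not pass, with a mean of 60.1.

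Tgfbr1 and Tgfbr2 encode the pair of kinases that TGF-beta binds. Tgfbr2 read 6881, 8856 and 7247 in pools 1, 2 and 3 on 1 of 3 probe sets, or 5.18 ± 0.14 (SE, n = 3) over background on the log2 scale (adjusted p = 2.07e-08, limma). Tgfbr1 read 9923, 10204 and 10688 on its brightest probe set, or 5.61 ± 0.12 over background (adjusted p = 1.6e-08, limma). Tgfbr3, the co-receptor betaglycan, which presents Tgfb2 in particular, read 1150, 1475 and 1061 and passed on 1 of 2 probe sets (adjusted p = 2.72e-06, limma).

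**Figure D2:**
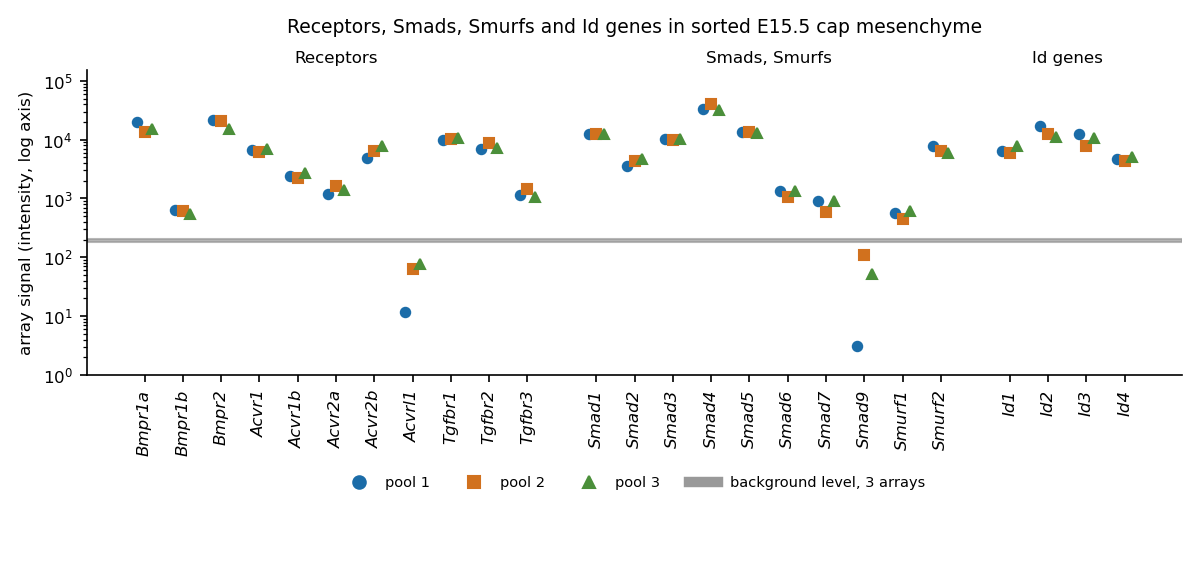
Array signal (intensity, log axis) of the brightest probe set of each receptor, Smad, Smurf and Id gene, 1 point per pool, with the background levels of the 3 arrays as a grey band. Acvrl1 and Smad9 lie under the band in all 3 pools, and the other genes lie over it in all 3.

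Among the Smads that BMP receptors activate, Smad1 and Smad5 were above background and Smad9 was not. Smad1 passed on 2 of 3 probe sets and read 12668, 12496 and 12348 in pools 1, 2 and 3 on the brightest, a 1.03-fold range. Smad5 read 13477, 13557 and 12912 on its brightest probe set, a 1.05-fold range. Smad9, on its only probe set, read 3.10, 107 and 51.5, under the level in every pool (adjusted p = 1, limma). The adjusted p of Smad1 and Smad5 was 1.6e-08 (limma).

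Smad2 and Smad3, the Smads of TGF-beta and activin receptors, both passed. Smad3 read 10376, 9814 and 10288 in pools 1, 2 and 3 on 1 of 3 probe sets, or 5.60 ± 0.12 (SE, n = 3) over background on the log2 scale. Smad2 passed on 2 of 2 probe sets, at 3595, 4316 and 4703 on one and 3800, 3814 and 3326 on the other. Smad4, the partner of both kinds, passed on 3 of 3 probe sets. It read 32779, 40260 and 32067 on the brightest, or 7.37 ± 0.16 over background (adjusted p = 1.6e-08, limma), and all 3 probe sets were highest in pool 2.

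The inhibitory Smads and the Smurf ubiquitin ligases, which mark receptors and Smads for breakdown, were also above background. Smad6 read 1354, 1063 and 1334 in pools 1, 2 and 3 (adjusted p = 1.03e-06, limma). Smad7 read 893, 589 and 913 on 1 of 2 probe sets (adjusted p = 2.69e-05, limma). Both were lowest in pool 2. Smurf2 passed on 3 of 3 probe sets, the brightest at 7885, 6335 and 5845. Smurf1 read 556, 444 and 618 on 1 of 2 probe sets (adjusted p = 0.000258, limma), and likewise did not pass against the 99th percentile (adjusted p = 0.379).

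All 4 Id genes were above background in all 3 pools. They encode proteins that pair with basic helix-loop-helix transcription factors and keep them off DNA, and they are the best known direct targets of BMP Smads. Id1 read 6502, 6047 and 7872 in pools 1, 2 and 3, or 5.01 ± 0.12 (SE, n = 3) over background on the log2 scale (adjusted p = 1.68e-08, limma). Id3 read 12690, 7795 and 10705, or 5.60 ± 0.15 over background (adjusted p = 2.3e-08, limma). Both were lowest in pool 2.

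Id2 read 16820, 12336 and 11230.1 in pools 1, 2 and 3 on its brightest probe set, highest in pool 1. A second probe set of Id2 passed at 360.5, 639 and 581 with pool 1 the lowest, and the remaining one did not pass. Id4 read 4635, 4320 and 5114 and was lowest in pool 2, as was a second probe set at 2203, 1834 and 2747. The remaining probe set of Id4 did not pass. The Id genes are widely used as a readout of BMP signalling, but many other inputs also set their level, and phosphorylated Smads were not measured here.

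The stretches just before the start sites of Id2, Id3 and Id4 are shown because the Id genes are the transcriptional endpoint of the list. Id1 is not shown and not in the motif counts. They are the 250 bases upstream of the annotated start, 5′ to 3′ on the gene's strand, from RefSeq on GRCm38.p6. Id2 lies on the minus strand at chr12:25096093-25096342, Id3 on the plus strand at chr4:136143572-136143821 and Id4 on the plus strand at chr13:48260866-48261115. Capitals mark GGCGCC, a GC-rich element of the kind bound by BMP Smads, and GTCT or its reverse complement AGAC, the core of the Smad box.
Id2: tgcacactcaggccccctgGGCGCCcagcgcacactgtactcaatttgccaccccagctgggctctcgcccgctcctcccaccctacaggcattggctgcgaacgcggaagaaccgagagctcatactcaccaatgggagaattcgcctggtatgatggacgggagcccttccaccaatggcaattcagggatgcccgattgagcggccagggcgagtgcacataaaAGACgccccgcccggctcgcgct
Id3: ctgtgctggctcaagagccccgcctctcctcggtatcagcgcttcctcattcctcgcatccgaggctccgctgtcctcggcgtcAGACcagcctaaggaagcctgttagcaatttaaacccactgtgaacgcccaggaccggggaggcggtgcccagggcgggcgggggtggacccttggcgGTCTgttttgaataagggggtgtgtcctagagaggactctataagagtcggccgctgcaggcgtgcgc
Id4: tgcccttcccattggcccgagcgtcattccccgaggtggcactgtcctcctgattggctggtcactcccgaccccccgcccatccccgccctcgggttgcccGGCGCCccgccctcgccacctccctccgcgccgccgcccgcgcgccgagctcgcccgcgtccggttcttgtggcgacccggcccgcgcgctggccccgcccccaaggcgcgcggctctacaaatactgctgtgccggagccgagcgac

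GGCGCC occurred once before Id2, once before Id4 and not before Id3. The 4-letter core occurred once before Id2, at 2 places before Id3 and not before Id4. Both motifs were searched on both strands and do not overlap each other in these windows. Of all 32851 RefSeq windows of this length, 9.6% held GGCGCC and 82.9% held the 4-letter core. Of the 35 windows of the 30 pathway genes in the table, 28.6% held GGCGCC and 82.9% the core. Their median GC content was 68.4%, against 52.4% over all windows, and its part in the share with GGCGCC was not tested. Among windows of pathway genes above background 26.9% held GGCGCC, and among those of genes not above it 33.3% did. A match is a description of letters and not evidence of a bound site.

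Probe sets of the same gene often fell on both sides of the call. Of the 29 pathway genes with several probe sets, 24 had at least 1 above background, and 17 of these 24 (70.8%) also had 1 or more that did not pass. Among all named genes this held for 4173 of 6484 (64.4%). For 7 genes every probe set passed, namely Bmp7, Acvr2a, Tgfbr1, Smad2, Smad4, Smad5 and Smurf2. The remaining 14 pathway genes rest on a single probe set, among them Bmp6, Gdf5, Nog, Chrd, Grem1 and Smad9, none of which was above background.

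**Figure D3:**
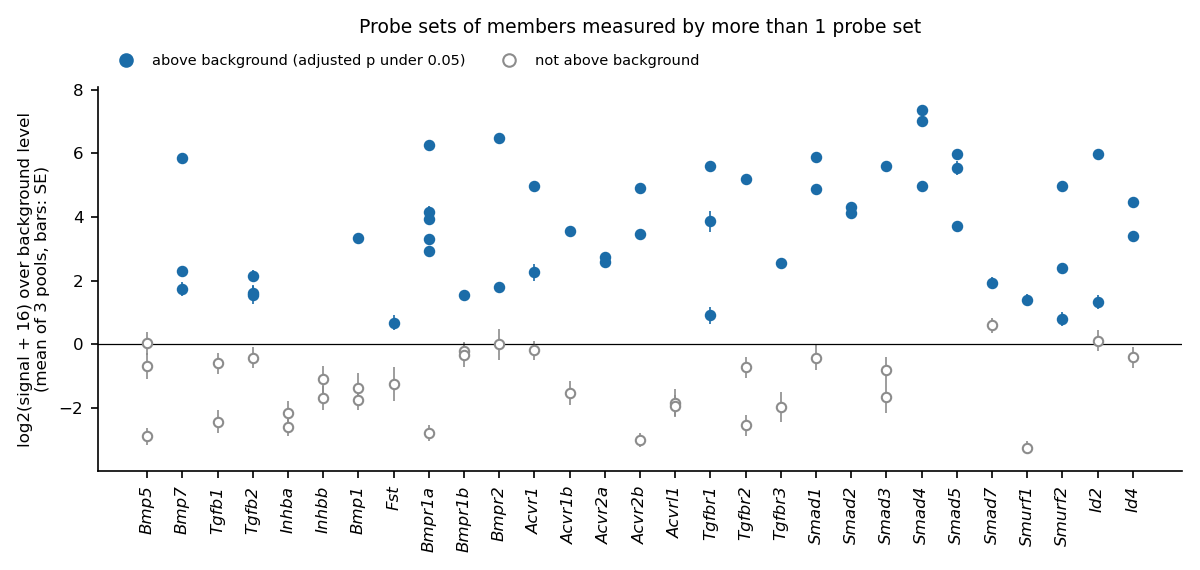
Distance from the background level on the scale of log2(signal + 16), as the mean of 3 pools with its moderated SE, for every probe set of the 29 pathway genes that have several. Filled points passed the test and open points did not, and 17 genes show both kinds.

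The pools were alike in most pathway genes. Among the 55 member probe sets above background, the median ratio of the highest to the lowest pool was 1.38, against 1.40 over all 18699 probe sets above background. A range of 2-fold or more was seen in 5 of the 55 (9.09%), against 12.6% of all. Across the 55 probe sets, whose values do not stand for replicates, Pearson's r of log2(signal + 16) between pools lay from 0.956 (1 with 3) to 0.980 (1 with 2), as a description of arrays that share platform and scaling.

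The 5 probe sets with a 2-fold range belonged to Tgfbr1, Tgfb2, Acvr1 and Smad5, and each was highest in pool 1 and lowest in pool 3. Tgfbr1 read 5853, 3230 and 1508 in pools 1, 2 and 3 on one of them and 508, 439 and 241 on the other, while its brightest probe set differed by 1.08-fold. Acvr1 read 1442, 1203 and 567 on one probe set, while its brightest differed by 1.13-fold. Smad5 read 14032, 10688 and 6202 on one probe set, against the 1.05-fold range of its brightest. In these 3 genes the large range was thus seen on 1 or 2 probe sets and not on the brightest of the same gene.

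The order with pool 1 highest and pool 3 lowest was also frequent outside the pathway. It was found in 1132 of the 2360 probe sets above background with a 2-fold range (48.0%) and in 19.8% of all probe sets above background, against 18 of the 55 pathway probe sets (32.7%). Control probe sets at both ends of a transcript differed between arrays. The ratio of the 3′ to the 5′ signal was 3.54, 9.72 and 9.08 for beta-actin and 20.5, 33.1 and 16.9 for Gapdh in pools 1, 2 and 3. The part of these differences in the pool order was not tested.

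**Figure D4:**
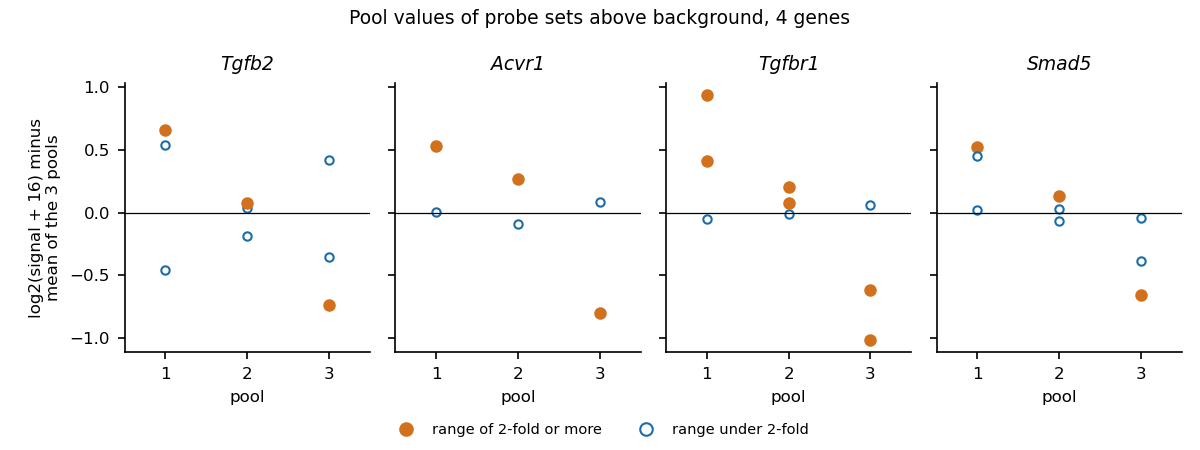
Deviation of each pool from the 3-pool mean of log2(signal + 16) for the probe sets above background of Tgfb2, Acvr1, Tgfbr1 and Smad5. Filled points are the 5 probe sets with a range of 2-fold or more, all highest in pool 1 and lowest in pool 3, and open points are the other probe sets of the same genes.

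Further genes of the pathway, from a separate list by role, were above background in 40 of 76 measured cases (52.6%), close to the 54.4% of all named genes. By role the counts were uneven. Of 25 intracellular regulators 24 passed, whereas 1 of 12 further ligands, 7 of 19 extracellular modulators, 3 of 9 receptors and co-receptors and 5 of 11 genes known as targets did. The regulators had 82 probe sets, any of which could put its gene above background, and the ligands 15. The differences between these roles were not tested.

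Among the intracellular regulators, the repressors of Smad complexes Ski, Skil, Tgif1 and Tgif2 passed. Skil, which TGF-beta signalling itself is known to induce, read 3480, 7993 and 8098 in pools 1, 2 and 3, lowest in pool 1 (adjusted p = 6.85e-07, limma). Trim33, the kinase gene Map3k7, the phosphatase gene Ppm1a and the co-activator genes Crebbp and Ep300 passed too. Fkbp1a, whose product holds type I receptors in their inactive state, read 45990, 51719 and 39496 (adjusted p = 1.6e-08, limma). Foxh1, a Smad2 partner of the early embryo, was the one that did not pass, at 56.0, 181 and 49.0. Zeb2 read 278, 522 and 938 (adjusted p = 0.00543, limma) and lost its call without pool 2 (adjusted p = 0.0636). Pmepa1 (mean 350.3 ± 33.0, SD, n = 3) also lost its call without pool 2 (adjusted p = 0.103).

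The further ligand above background was Inha, the inhibin alpha subunit, at 742, 683 and 619 in pools 1, 2 and 3 (adjusted p = 3.7e-05, limma). Nodal, Lefty1, Lefty2, Amh, Bmp8a, Bmp8b, Bmp10, Gdf3 and Gdf10 were not above background, nor were Gdf2 and Gdf9, with adjusted p of 0.0947 and 0.135 (limma). Gdf9 passed when pool 3 was left out (adjusted p = 0.0276).

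Extracellular modulators that passed included Twsg1, which works with chordin, at 5825, 8021 and 7639 in pools 1, 2 and 3. Fstl1, a follistatin-like protein, read 20297, 24141 and 21005. Bambi, a decoy receptor without kinase activity, read 1705, 2227 and 2040.2. The latent TGF-beta binding protein genes Ltbp1 and Ltbp3 and the fibrillin gene Fbn2, whose products store ligands in the matrix, passed at means of 7812, 4627 and 44574. Dcn, a matrix proteoglycan that binds TGF-beta, passed with 395, 549 and 236 and lost its call without pool 2 (adjusted p = 0.211). The antagonist genes Chrdl1, Chrdl2, Fstl3, Nbl1, Sostdc1, Sost, Cer1 and Dand5 were not above background.

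Of the co-receptors, Neo1, a receptor that binds repulsive guidance molecules, read 23746, 31271 and 26337 in pools 1, 2 and 3. Rgmb, such a guidance molecule and BMP co-receptor, passed on 5 of 6 probe sets. The brightest of them read 3697, 1730 and 895, a 4.08-fold range with pool 1 highest and pool 3 lowest. That order was also frequent outside the pathway, and the pool order of the other probe sets of Rgmb is not given here. Eng, an endothelial co-receptor, passed on 1 of 2 probe sets at 362, 494 and 417, 2.08-fold over background. None of the 6 endothelial markers passed, but Esam read 424, 249 and 267, over the level in all 3 pools. It lay 1.52-fold over background (adjusted p = 0.064, limma). Kdr was over the level in 2 pools, and Pecam1, Cdh5, Tek and Tie1 were under it in every pool. The cell source of the Eng signal was not tested. Among genes known as targets, Tsc22d1 and Tgfbi passed at means of 83657 and 42290 (SD 23878 and 2913, n = 3), as did Cdkn1a and Hey1, which also answer to p53 and to Notch. Tgfb1i1 passed with 529, 192 and 499 (adjusted p = 0.0315, limma) and lost its call without pool 1 (adjusted p = 0.133) or pool 3 (adjusted p = 0.128). The BMP target genes Msx1, Msx2, Atoh8 and Dlx5 and the TGF-beta target genes Ccn2 and Tagln were not above background. The count of further genes above background was 40 with all pools and 37 to 40 with 1 pool left out.

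**Figure D5:**
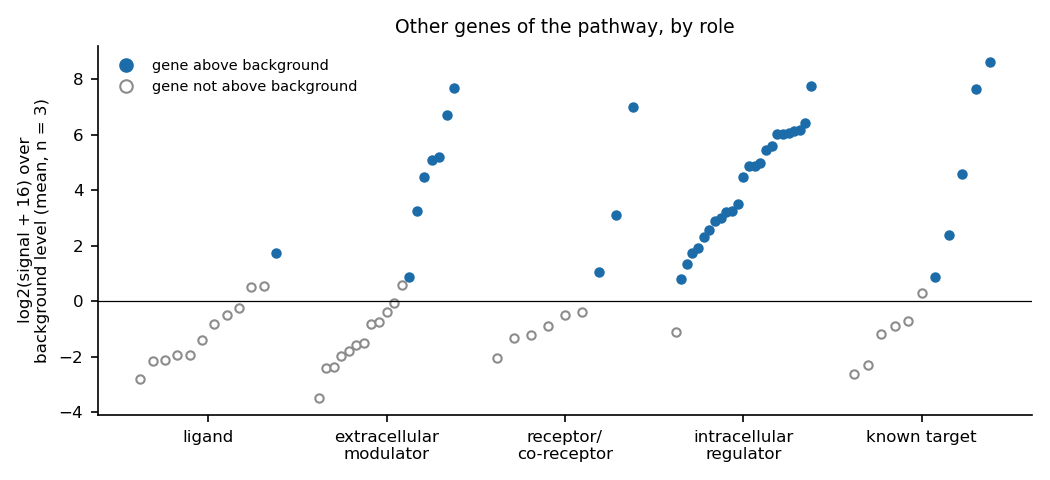
Distance from the background level on the scale of log2(signal + 16), mean of 3 pools, for the brightest probe set of 76 further pathway genes, sorted within each role. Filled points are genes above background, 24 of 25 among the intracellular regulators and 1 of 12 among the ligands.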

How the data were processed

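The authors deposited 1 linear array intensity per probe set and pool, obtained with GCOS, per the submitters' processing notes; its version and settings, like the genome build, are not given in the sources used here. As tested on the values, the mean of each array without its lowest and highest 2% was 1500. The medians of the arrays were 222, 197 and 184, and the number of arrays limits the precision.

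The platform annotation gave 1 symbol for 34945 of 45037 probe sets. All 94 member probe sets matched RefSeq by Entrez identifier. From log2(signal + 16) the 95th percentile of 150 background probe sets (44 olfactory, 36 vomeronasal, 3 taste receptor, 43 keratin-associated protein and 24 defensin) was subtracted per array. limma 3.58.1 in R 4.3.3 fitted an intercept with eBayes and an intensity trend, tested one-sided with Benjamini-Hochberg adjustment, after a check on simulated data. That check took its level from 150 randomly drawn probe sets and not from the background probe sets. It therefore does not cover calls near the level used here. Any passing probe set put its gene above background. Python 3.11.15, pandas 2.3.3 and matplotlib 3.10.9 made tables and plots.

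The members and the lists were chosen with earlier results of these data known. All members and all genes of the further list could be named. Alternatives changed the pseudocount, background level and probe sets, scaling, trend, filter on low signals, ambiguous probe sets, threshold and arrays.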

Additional observations from a re-analysis of the deposited data

How the results depend on the processing

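Of the 31 pathway genes above background, 28 kept their call under every alternative that tested them, and the 12 others were not above background under any. The 3 that lost a call were Fst, Bmpr1b and Smurf1, the last 2 only at the 99th percentile of background. There the adjusted p rose to 1 for Fst, Dcn, Eng, Pmepa1 and Tgfb1i1, whose means then lay under the level. The count of antagonists above background fell from 2 to 1 at the 99th percentile, at an adjusted p under 0.01 and without each pool in turn (1 to 1), through the loss of Fst. The count of pathway genes above background was 28 to 31 over the alternatives. With a range of 1.5-fold in place of 2-fold, 19 pathway probe sets and 7308 probe sets in all differed between pools, in place of 5 and 2360, because the limit is lower. Of the further genes not above background, Gdf2, Gdf9 and Ltbp4 passed under 3, 2 and 5 of 13 alternatives. Signal over background limits the calls of genes near the level, such as Grem1, Bmp5 and Gdf11. No paired analysis was possible because the series has a single group.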
